A study of Mus musculus with 12 samples.

Results

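The 10 genes described here, Fat1, Epha2, Tnfsf4, Inka2, Plb1, Matn1, Sulf2, Ephx1, Exoc4 and Pappa2, were chosen from the 25078 genes of the deposited tables. Their names were picked because their transcripts were strongly higher after irradiation of wild-type cells and because they are not among the usual p53 arrest and death genes; no numerical threshold was set. The WT difference therefore chose them and is given below as a description, with no test. RNA was sequenced from LSK cells, the lineage-negative, Sca1-positive, c-Kit-positive bone marrow cells that include mouse hematopoietic stem cells and multipotent progenitors. The cells came from 3 preleukemic Cbfb-MYH11 mice (CM) and 3 wild-type mice (WT). After sorting, part of the cells of each animal received 3.5 Gy of ionising radiation (IR), part went through the same incubation unirradiated (NIR), and both were harvested 24 h after the irradiation. The 4 groups of 3 libraries are thus CM IR, CM NIR, WT IR and WT NIR, and the labels give each animal 1 number shared by its IR and NIR library.

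Cbfb-MYH11 is the gene fusion that arises from inv(16) in acute myeloid leukemia; neither the way the allele is switched on in these mice nor their age is stated in the labels. WT libraries are titled control, and the library names of WT animals 1 and 3 carry a C where that of animal 2 carries WT. The library names of all CM animals carry CHW in that place. The meaning of these letters is not stated. Total gene counts ran from 68.5 to 110.8 M per library. The defining LSK genes were detected in all 12 libraries: the 10 markers of the list, Kit, Ly6a, Cd34 and Flt3 among them, summed to 1009.9 to 1740.2 CPM (counts scaled to library size, with TMM factors) in CM IR, 958 to 1792 in CM NIR, 1088 to 1454 in WT IR and 889.7 to 1378 in WT NIR. The libraries of CM animal 3 stood apart. Over all tested genes the deviations of its IR and NIR library from the group means correlated at 0.125, against 0.412 to 0.844 for the other 5 pairs, so the CM results are also given without that animal. Library numbers put CM animals 1 and 2 and WT animal 1 in 1 series and the other 3 animals in another.

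The products act at different places in and around the cell. Fat1 is a giant atypical cadherin that takes part in cell contacts and planar polarity, Epha2 is a receptor tyrosine kinase that binds ephrin-A ligands on neighbouring cells, and Tnfsf4 (OX40 ligand) is a TNF family ligand for the receptor Tnfrsf4. Plb1 is a membrane-anchored phospholipase B. Among the secreted products, Matn1 is a matrilin of cartilage matrix, Sulf2 is an endosulfatase that removes sulfate groups from heparan sulfate and so alters the binding of growth factors, and Pappa2 is a metalloproteinase that cleaves IGF binding proteins. The other 3 are known as intracellular proteins: Inka2 inhibits the kinase Pak4, Ephx1 is the epoxide hydrolase of the endoplasmic reticulum, and Exoc4 is a subunit of the exocyst, which tethers secretory vesicles to the plasma membrane. The term surface and matrix genes therefore does not cover Inka2, Ephx1 and Exoc4. Ionising radiation breaks DNA and stabilises the transcription factor p53, which binds a response element made of a pair of half-sites with a short spacer.

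The promoters of 9 of the 10 genes were read from RefSeq (build GRCm38.p6, the same assembly as mm10), 12 start sites in all, each from 250 bases before to 50 bases after the start; Tnfsf4 was not among them. The p53 consensus half-site, with 0 mismatches and on both strands, lay in promoters of 2 of the 9 genes, Inka2 and Exoc4, and in those of 9.55% of all 27025 genes of the table (2582 genes). A full site of 2 such half-sites 0 to 13 bases apart was in none of the 9 and in 20 of 27025 genes. With 1 mismatch allowed in each half-site outside the central C and G, Inka2 alone of the 9 held a full site, against 3.09% of all genes. Half-sites with 1 mismatch were common, in 8 of the 9 genes and in 54.2% of all genes. A match is a description of the letters, and the absence of one in so short a window says nothing about binding elsewhere. The stretches before the start are shown for the genes with an exact half-site, whose letters are in capitals, and for Epha2, which had the highest fitted change of the 10 genes in CM cells and no half-site even with 1 mismatch.
Inka2, second start (chr3:105705208-105705457, plus strand): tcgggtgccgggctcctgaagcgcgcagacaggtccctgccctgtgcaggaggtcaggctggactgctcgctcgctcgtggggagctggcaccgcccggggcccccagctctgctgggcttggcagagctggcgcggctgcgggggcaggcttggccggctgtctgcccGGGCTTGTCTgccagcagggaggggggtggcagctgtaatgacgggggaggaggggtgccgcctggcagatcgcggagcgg
Exoc4 (chr6:33248878-33249084, plus strand): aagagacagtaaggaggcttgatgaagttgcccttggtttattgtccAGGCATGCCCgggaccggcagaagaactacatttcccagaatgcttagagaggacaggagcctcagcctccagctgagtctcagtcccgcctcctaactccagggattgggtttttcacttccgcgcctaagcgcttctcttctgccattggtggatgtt
Epha2 (chr4:141300971-141301220, plus strand): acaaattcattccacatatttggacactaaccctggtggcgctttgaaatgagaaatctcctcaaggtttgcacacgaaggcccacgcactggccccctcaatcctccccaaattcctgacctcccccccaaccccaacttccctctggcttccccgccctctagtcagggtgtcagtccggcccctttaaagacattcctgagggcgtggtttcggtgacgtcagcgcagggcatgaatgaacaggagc

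The Inka2 half-site occupies 105705377 to 105705386 on chromosome 3, upstream of the second of 2 annotated starts and inside the intron that follows the first exon of the longer transcript. Its 1-mismatch partner lies 12 bases away, so that the pair spans 105705355 to 105705386. The Exoc4 half-site occupies 33248925 to 33248934 on chromosome 6, and the stretch shown ends where the earliest annotated exon begins.

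The genes were chosen on the WT difference, and the response of CM cells was the comparison that this rule did not use. Earlier results of these data were known when the choice was made. All 10 genes passed the filter on low counts, and 9 of them were higher in CM IR than in CM NIR cells, with fitted log2 fold changes from 0.72 for Exoc4 to 3.03 for Epha2. In each of these 9 the 3 irradiated libraries lay above the 3 unirradiated ones. Pappa2 ran the other way without overlap in CPM, on 3, 2 and 3 counts in CM IR against 5, 3 and 7 in CM NIR. It passed the filter only through its WT IR libraries, so nothing is read from its order. Of all 14599 genes tested, 1.57% (229) had irradiated libraries all above the unirradiated ones in CM and 0.986% (144) all below, and 1.38% (201) were higher at an unadjusted p under 0.05, the same 9 genes among them, against 0.247% (36) lower. None of the 10 passed an adjusted p of 0.05 in edgeR's quasi-likelihood test, where 0.00685% (1 gene of 14599) was called higher and 0% lower. DESeq2 called 18 genes higher (0.123%), and 4 of them were Epha2, Tnfsf4, Inka2 and Matn1; limma-voom called 1 gene (0.00685%) and none of the 10. The median fitted log2 fold change of the 10 genes was 1.72, against -0.0012 over all genes tested. Without both libraries of CM animal 3 it was 2.01 and again none of the 10 was called; without those of animal 2 it was 1.08 and Epha2 was called. In RNA from bulk samples, fewer cells of a type and less RNA per cell cannot be told apart.

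**Figure D1:**
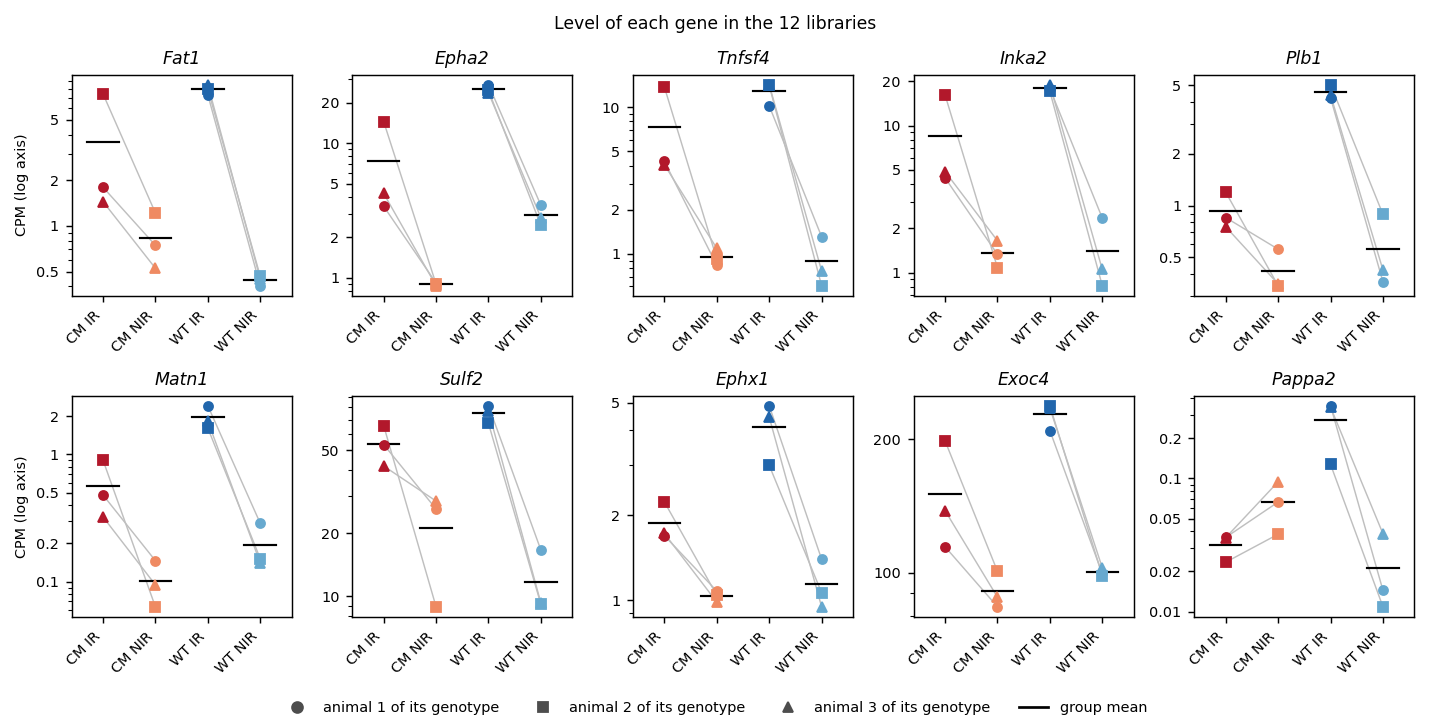
Level of each of the 10 genes in CPM (log axis) in the 12 libraries, by group; points are single libraries with 1 symbol per animal, grey lines join the IR and NIR library of an animal, and black bars are group means of 3 libraries. CM animal 2 has the highest CM IR level of every gene but Pappa2, and the WT IR libraries of Fat1, Epha2, Inka2 and Plb1 lie close together.

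Among the surface proteins, Epha2 (chromosome 4, 141301221 to 141329384, plus strand, mm10) stood at 3.40, 14.4 and 4.24 CPM in CM IR animals 1, 2 and 3, against 0.918, 0.902 and 0.877 CPM in CM NIR. The unirradiated CM libraries were nearly equal, while irradiated animal 2 was more than 3 times as high as the other 2. The log2 fold change was 3.03 with an SE of 0.48 (adjusted p = 0.297). Without both libraries of CM animal 2 it was 2.09 and passed (adjusted p = 0.0150), while without those of animal 1 it was 3.39 (adjusted p = 0.511) and without those of animal 3 it was 3.30 (adjusted p = 1), and it did not pass. In WT cells, whose values chose the gene, Epha2 had 27.2, 24.6 and 23.6 CPM in WT IR, against 3.46, 2.45 and 2.81 CPM in WT NIR, a log2 fold change of 3.11 ± 0.48 (SE).

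Tnfsf4 (chromosome 1, 161395438 to 161418206, plus strand) had 4.28, 13.7 and 4.06 CPM in CM IR animals 1, 2 and 3, against 0.838, 0.927 and 1.09 CPM in CM NIR. Irradiated animal 2 was close to WT IR animals 2 and 3, while the other 2 CM animals were at less than 5 CPM. Its log2 fold change in CM was 2.95 with an SE of 0.49 (adjusted p = 0.297), and was 2.13 without the CM IR library of animal 2 and 2.11 without both libraries of that animal. In WT it had 10.2, 14.1 and 14.3 CPM in WT IR, against 1.31, 0.608 and 0.769 CPM in WT NIR (3.85 ± 0.51). Tnfrsf4, the gene of its receptor, was detected in every library, at 1.62, 1.63 and 1.58 CPM in CM IR, against 1.72, 1.51 and 1.32 CPM in CM NIR, with overlapping groups and a log2 fold change of 0.09 ± 0.21.

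Fat1 (chromosome 8, 44950208 to 45052257, plus strand) had 1.80, 7.44 and 1.45 CPM in CM IR animals 1, 2 and 3, against 0.745, 1.22 and 0.526 CPM in CM NIR. Here too animal 2 stood apart, and its unirradiated library was the highest of the 3. The log2 fold change in CM was 2.10 with an SE of 0.57 (adjusted p = 0.99996). It was 0.97 without the CM IR library of animal 2 and 1.35 without both libraries of that animal. In WT Fat1 had 7.34, 8.02 and 8.56 CPM in WT IR, against 0.404, 0.467 and 0.448 CPM in WT NIR (4.17 ± 0.62), and both WT groups were tight. Plb1 (chromosome 5, 32232708 to 32364356, plus strand) had 0.853, 1.2 and 0.754 CPM in CM IR animals 1, 2 and 3, against 0.559, 0.343 and 0.351 CPM in CM NIR, a log2 fold change of 1.16 with an SE of 0.36 (adjusted p = 0.99996), or 0.94 without the CM IR library of animal 2 and 0.82 without both libraries of that animal. The irradiated CM libraries of Plb1 lay within 0.754 to 1.2 CPM, and the WT IR libraries, at 4.24, 5.05 and 4.40 CPM, were all above them. WT NIR stood at 0.360, 0.890 and 0.423 CPM (3.02 ± 0.37 for WT IR over WT NIR). Annotated antisense transcripts overlap Fat1 and Plb1, and since the strand setting of the counting is not stated, their reads cannot be told from those of the gene.

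Of the secreted products, Sulf2 (chromosome 2, 166073899 to 166155683, minus strand) was the most abundant, with 53.1, 65.5 and 41.9 CPM in CM IR animals 1, 2 and 3, against 26.1, 8.89 and 28.5 CPM in CM NIR. Its unirradiated CM level was low in animal 2 and about 3 times as high in animals 1 and 3, and animal 2 had the widest difference between its libraries. The log2 fold change was 1.34 with an SE of 0.39 (adjusted p = 0.99996), against 1.17 without the CM IR library of animal 2 and 0.80 without both libraries of that animal. In WT it had 81.5, 67.1 and 76.9 CPM in WT IR, against 16.6, 9.14 and 9.26 CPM in WT NIR (2.69 ± 0.41), with animal 1 the highest of the unirradiated libraries. The 3 NIR libraries with the most Sulf2, CM animals 1 and 3 and WT animal 1, were also those with the most RNA of macrophage and dendritic cell markers. Those 7 markers, such as Adgre1 and C1qa, summed to 1851, 355 and 1677 CPM in CM NIR animals 1, 2 and 3, against 2135, 451 and 567 CPM in WT NIR, and none of the 7 was at 0. Most of each sum was Mrc1, at 1411, 249 and 1232 CPM in CM NIR, against 1704, 342 and 466 CPM in WT NIR. Siglech, a dendritic marker of the list, went the other way in WT NIR, at 6.70, 14.7 and 14.5 CPM. The 3 NIR libraries with the most Sulf2 also had the highest NIR sums of mast cell and basophil, mature neutrophil, megakaryocyte and erythroid markers. In CM IR, animal 2 had the most Sulf2 but the lowest macrophage and dendritic sum, 509 CPM, against 2052 and 1593 CPM in animals 1 and 3. The part of these cells in the Sulf2 level was not tested.

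Matn1 (chromosome 4, 130944385 to 130955476, plus strand) was scarce, with 0.480, 0.904 and 0.323 CPM in CM IR animals 1, 2 and 3, against 0.146, 0.0635 and 0.0945 CPM in CM NIR. The unirradiated CM libraries held 11, 5 and 7 counts, so counting error weighs on the log2 fold change of 2.47 with an SE of 0.48 (adjusted p = 0.547). It was 1.97 without the CM IR library of animal 2 and 1.72 without both libraries of that animal. In WT it had 2.42, 1.61 and 1.83 CPM in WT IR, against 0.288, 0.152 and 0.141 CPM in WT NIR (3.34 ± 0.47). Markers of cartilage, where Matn1 is best known, were near the limit of counting: Acan, Col2a1, Sox9, Comp, Col9a1 and Matn3 together summed to 0.456 to 0.742 CPM in CM IR, 0.580 to 0.732 in CM NIR, 0.446 to 1.71 in WT IR and 0.380 to 0.692 in WT NIR. Acan was at 0 in CM IR, WT IR and WT NIR, and Sox9 in WT IR.

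Pappa2 (chromosome 1, 158711735 to 158958175, minus strand) was the exception. It had 3, 2 and 3 counts in CM IR animals 1, 2 and 3, against 5, 3 and 7 counts in CM NIR, and 30, 12 and 39 counts in WT IR, against 1, 1 and 3 counts in WT NIR. Only the WT IR libraries carried it over the filter minimum of 0.12 CPM, so it was tested in CM at all only because of the values that chose it. The depth-scaled ratio of summed counts, IR over NIR, was 0.483 in CM (exact 95% interval 0.177 to 1.21, Clopper-Pearson, for counting error only). In WT, whose values chose the gene, it was 13.2. The CM interval contains 1, so no difference was detectable in CM at this depth, while the fitted log2 fold change was -1.02 with an SE of 0.62 (adjusted p = 0.99996).

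Of the intracellular products, Inka2 (chromosome 3, 105704599 to 105720842, plus strand) had 4.41, 16.2 and 4.87 CPM in CM IR animals 1, 2 and 3, against 1.33, 1.08 and 1.65 CPM in CM NIR. Animal 2 was again above the other irradiated CM animals, by more than 3 times. The log2 fold change was 2.65 with an SE of 0.54 (adjusted p = 0.582). It was 1.78 without the CM IR library of animal 2 and 1.64 without both libraries of that animal. In WT Inka2 had 17.9, 17.1 and 19.0 CPM in WT IR, against 2.35, 0.814 and 1.05 CPM in WT NIR (3.68 ± 0.56). Its target Pak4 stood at 13, 17.9 and 13.7 CPM in CM IR, against 13.5, 19.2 and 11.5 CPM in CM NIR, and its paralog Inka1 at 9.02, 24.6 and 10.6 CPM, against 7.77, 24.5 and 8.53 CPM. The groups overlapped for both genes and neither passed, with log2 fold changes of 0.02 ± 0.19 for Pak4 and 0.12 ± 0.46 for Inka1.

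Ephx1 (chromosome 1, 180989556 to 181017569, minus strand) had 1.69, 2.23 and 1.72 CPM in CM IR animals 1, 2 and 3, against 1.08, 1.04 and 0.985 CPM in CM NIR. The unirradiated libraries differed little and the irradiated ones were all higher, with a log2 fold change of 0.86 with an SE of 0.24 (adjusted p = 0.99996). In WT it had 4.88, 3.0 and 4.45 CPM in WT IR, against 1.40, 1.06 and 0.948 CPM in WT NIR (1.86 ± 0.24). Exoc4 (chromosome 6, 33249128 to 33973978, plus strand), by far the most abundant of the 10, had 114, 198 and 138 CPM in CM IR animals 1, 2 and 3, against 83.9, 101 and 88.2 CPM in CM NIR, a log2 fold change of 0.72 with an SE of 0.17 (adjusted p = 0.99996), or 0.47 without the CM IR library of animal 2 and 0.55 without both libraries of that animal. In WT it had 209, 238 and 235 CPM in WT IR, against 99.6, 98.6 and 103 CPM in WT NIR (1.18 ± 0.17), the smallest WT fold change of the 10. Exoc4 spans 724851 bases and 3 other annotated genes overlap it, 2 on the opposite strand and 1 on its own, so part of its count may belong to them.

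The differences between the IR and NIR library of an animal, in log2 CPM, were uneven in CM. In CM animal 2 the difference was the highest of the 3 CM animals for all 10 genes. No share over all genes is given for this order, and for Pappa2 all 3 CM differences were negative, on 2 to 7 counts per library. The median over the 10 genes was 2.73 log2 units in CM animal 2, beside 1.14 in animal 1 of the same library series and 1.24 in animal 3 of the other. WT animals 1, 2 and 3 had medians of 2.95, 3.05 and 3.19. A difference of over 1 log2 unit was met by 6 of the 10 genes in CM animal 1, 8 in animal 2 and 6 in animal 3, against 1.69%, 2.47% and 7.19% of all genes, and by 5 genes in all 3 CM animals, against 0.219%. In CM animals 1 and 3 the difference of all 10 genes was below the range of the WT animals. In CM animal 2 it was below that range for 5 genes, within it for 4 and above it for 1, Epha2. These counts against the WT range have no share over all genes beside them, and nothing is read from them. The mean difference was smaller in CM than in WT for all 10 genes, with a gap, CM minus WT, of -0.42 log2 units for Epha2 and -3.32 for Pappa2 at the extremes. Because a large WT change chose these genes, a smaller CM value is favoured from the outset, and no test of the gap is given.

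**Figure D2:**
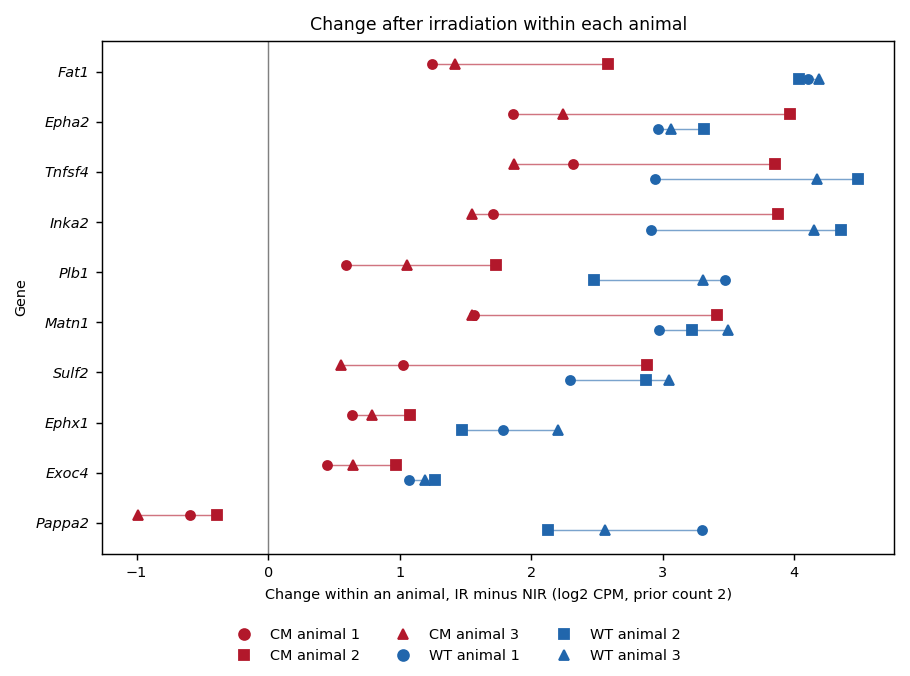
Difference of each gene within each animal, IR minus NIR in log2 CPM with a prior count of 2; red symbols are the 3 CM animals and blue symbols the 3 WT animals, and lines span the 3 animals of a genotype. The red square of CM animal 2 is the rightmost CM symbol in every row, and Pappa2 is the 1 gene whose CM symbols lie left of 0.

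The genes split by how far CM animal 2 went. Within CM animals 1, 2 and 3, Epha2 differed by 1.86, 3.97 and 2.24 log2 units, against 2.96, 3.31 and 3.06 within WT animals 1, 2 and 3. Inka2 differed by 1.71, 3.88 and 1.55 within CM animals 1, 2 and 3, against 2.91, 4.35 and 4.15 within WT animals 1, 2 and 3. For these genes, and for Tnfsf4, Matn1 and Sulf2, animal 2 was within or above the WT range. For Fat1, Plb1, Ephx1, Exoc4 and Pappa2 it was below it: Plb1 differed by 0.59, 1.74 and 1.05 within CM animals 1, 2 and 3, against 3.47, 2.47 and 3.31 within WT animals 1, 2 and 3. Fat1 differed by 1.25, 2.59 and 1.42 within CM animals 1, 2 and 3, against 4.11, 4.03 and 4.19 within WT animals 1, 2 and 3, and in animal 2 its irradiated level of 7.44 CPM lay inside the WT IR range while its unirradiated level was above that of every other NIR library.

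Markers of other blood cells differed between the same animals. In CM IR animals 1, 2 and 3 the macrophage and dendritic markers summed to 2052, 509 and 1593 CPM, the 6 mast cell and basophil markers to 1426, 315 and 930.1 CPM and the 7 mature neutrophil markers to 665, 126 and 611 CPM. CM animal 2 was thus the lowest in all 3 sums, as it was in CM NIR. There the sums were 1851, 355 and 1677 CPM, 1256, 278 and 1690.1 CPM and 644, 107 and 1442 CPM. The macrophage and dendritic sums were mostly Mrc1, at 1518, 337 and 1278 CPM in CM IR. The neutrophil sums in CM were mostly Mmp8, at 655, 114 and 542 CPM in CM IR. S100a9, Ltf and Camp were instead lowest in animal 1 in CM IR, with S100a9 at 2.81, 5.36 and 28.6 CPM. S100a8 was lower in CM IR, at 7.06, 6.29 and 35.4 CPM, than in WT IR, at 56.0, 90.8 and 44.2 CPM. In WT the ranges of the 3 lists were 828 to 1579, 249 to 395 and 145 to 284 CPM in IR, against 451 to 2135, 232 to 588 and 186 to 344 CPM in NIR, with WT animal 1 the highest NIR library in each. WT animal 1 had the smallest of the 3 WT differences in 6 of the 10 genes. No share over all genes is given for that count, and nothing is read from it. No marker of these 3 lists was at 0 in a group. The 6 megakaryocyte markers summed to 468, 261 and 281 CPM in CM IR, against 426, 201 and 501 CPM in CM NIR, and the 8 erythroid markers, 4 of them hemoglobin genes listed at 0, to 44.8, 6.29 and 20 CPM, against 45.3, 10.4 and 69.8 CPM, again lowest in animal 2. Markers of T, NK and B cells did not exceed 19.2 CPM per list in any library. The part of these cells in the differences of the 10 genes was not tested.

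Markers of cells that lay down matrix were mostly scarce. Of 12 stromal and bone markers Lum was at 0 in CM NIR, WT IR and WT NIR, Dcn in WT IR and WT NIR, and Col3a1 in WT NIR, and the list summed to 61.8 to 128 CPM in CM IR, 61.2 to 157 in CM NIR, 105 to 116 in WT IR and 79.9 to 133 in WT NIR, mostly from Runx2 and Pdgfrb. Col1a1 did not exceed 0.386 CPM in any library. The 8 endothelial markers summed to 176 to 343 CPM in CM IR, 181 to 318 in CM NIR, 305 to 337 in WT IR and 236 to 263 in WT NIR, mostly Pecam1, while Cdh5 stayed under 1 CPM throughout. No marker of the endothelial list was at 0 in a group.

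Per exon length, Exoc4 had the highest level of the 10 genes. In CM IR it averaged 25.0 ± 7.30 RPKM (reads scaled to exon length and library size; SD, n = 3) and Sulf2 12.6 ± 2.87 RPKM, followed by Tnfsf4 at 4.53 ± 3.43, Epha2 at 1.85 ± 1.56, Inka2 at 1.76 ± 1.39 and Ephx1 at 1.07 ± 0.177 RPKM. Matn1, Fat1, Plb1 and Pappa2 were under 0.3 RPKM there. From Tnfsf4 to Ephx1, the range of each gene over the 3 CM IR animals overlapped that of the next in this order. Within each of these animals Tnfsf4 stood above Epha2, at 2.63, 8.48 and 2.47 RPKM against 0.856, 3.65 and 1.05 RPKM. The order of Epha2 and Inka2, and that of Inka2 and Ephx1, differed between the animals. The exons of Fat1 sum to 14627 bases, against 1609 for Tnfsf4, which puts Fat1 much lower per length than in CPM.

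Across the 4 groups the mean RPKM was highest in WT IR for all 10 genes, as their choice would give. WT IR lay above CM IR without overlap for 8 of them and overlapped it for Fat1 and Tnfsf4, both through CM animal 2; of all genes tested, 8.36% had CM IR wholly below WT IR and 9.23% wholly above. The 8 of 10 is a description of genes picked for high WT IR levels. CM IR had the next highest mean for 9 genes, and CM NIR for Pappa2. Among unirradiated cells, CM NIR and WT NIR overlapped for 8 genes. The other 2 are near the share over all genes, of which 7.84% had CM NIR wholly below WT NIR and 8.14% wholly above. They were Epha2, at 0.224 ± 0.00467 RPKM in CM NIR and 0.729 ± 0.124 RPKM in WT NIR (log2 fold change of CM over WT -1.69 ± 0.46), and Fat1, at 0.0558 ± 0.0240 RPKM in CM NIR and 0.0297 ± 0.00236 RPKM in WT NIR (0.91 ± 0.57). Epha2 was also lower in CM among irradiated cells, by a log2 fold change of -1.77 ± 0.45. No test of CM against WT is given for these genes, since both WT groups took part in choosing them.

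By fitted log2 fold change in WT, Fat1 ranked 6 of 14599 genes, Tnfsf4 12, Inka2 14, Pappa2 15, Matn1 22, Epha2 27, Plb1 31, Sulf2 40, Ephx1 92 and Exoc4 209. In CM the ranks were 17 for Epha2, 19 for Tnfsf4, 29 for Inka2, 40 for Matn1, 66 for Fat1, 147 for Sulf2, 206 for Plb1, 396 for Ephx1, 544 for Exoc4 and 14548 for Pappa2. In WT, edgeR called 0.116% of genes higher (17) and 0% lower, and 9 of the 17 are genes described here; nothing is read from that count. Without adjustment, a p under 0.05 was reached by 2.54% of genes in the higher direction and 1.51% lower.

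**Figure D3:**
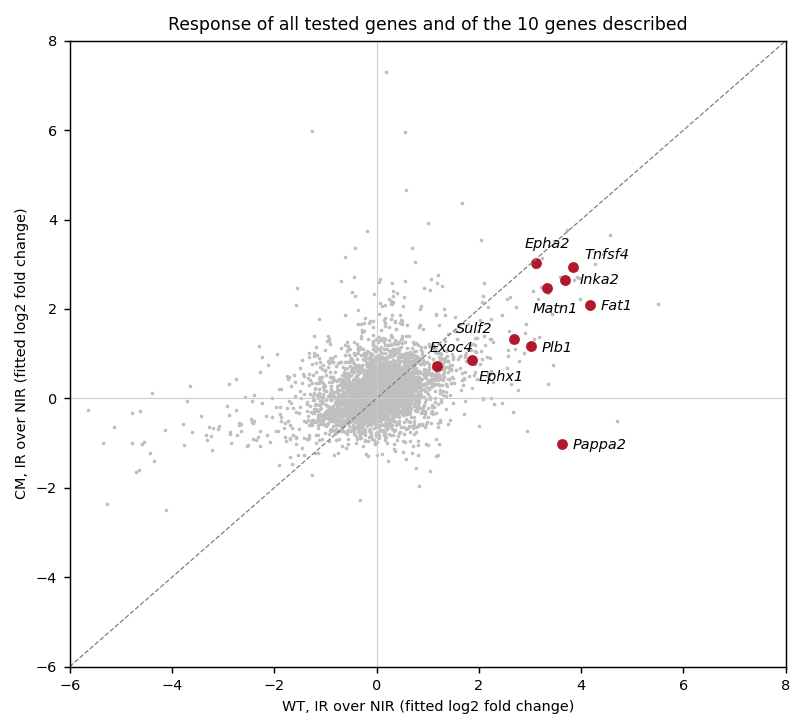
Fitted log2 fold change, IR over NIR, in WT (horizontal) and in CM (vertical) for the 14599 genes tested (grey) and the 10 genes described (red, named); the dashed line marks equal change. Epha2 lies next to the line at 3.11 in WT and 3.03 in CM, the other 9 lie below it, and Pappa2 is below 0 in CM.

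The other genes of the same families and pathways were set beside them, from 10 lists that hold 186 genes besides the 10, of which 144 were tested. None of the 144 passed over all genes in edgeR's test, in CM or in WT; at an unadjusted p under 0.05 there were 6 in CM and 8 in WT. DESeq2 called 0 in CM and 2 in WT, limma-voom 0 and 1, and the fit with the animal as a replicate block 0 and 2. Over all genes in WT, DESeq2 called 0.76% higher and 0.199% lower, limma-voom 0.205% and 0.00685%, and the block 0.938% and 0.178%. The median log2 fold change of the lists lay between -0.15 and 0.14 in CM and between -0.06 and 0.33 in WT, beside -0.0012 and -0.0089 over all genes.

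**Figure D4:**
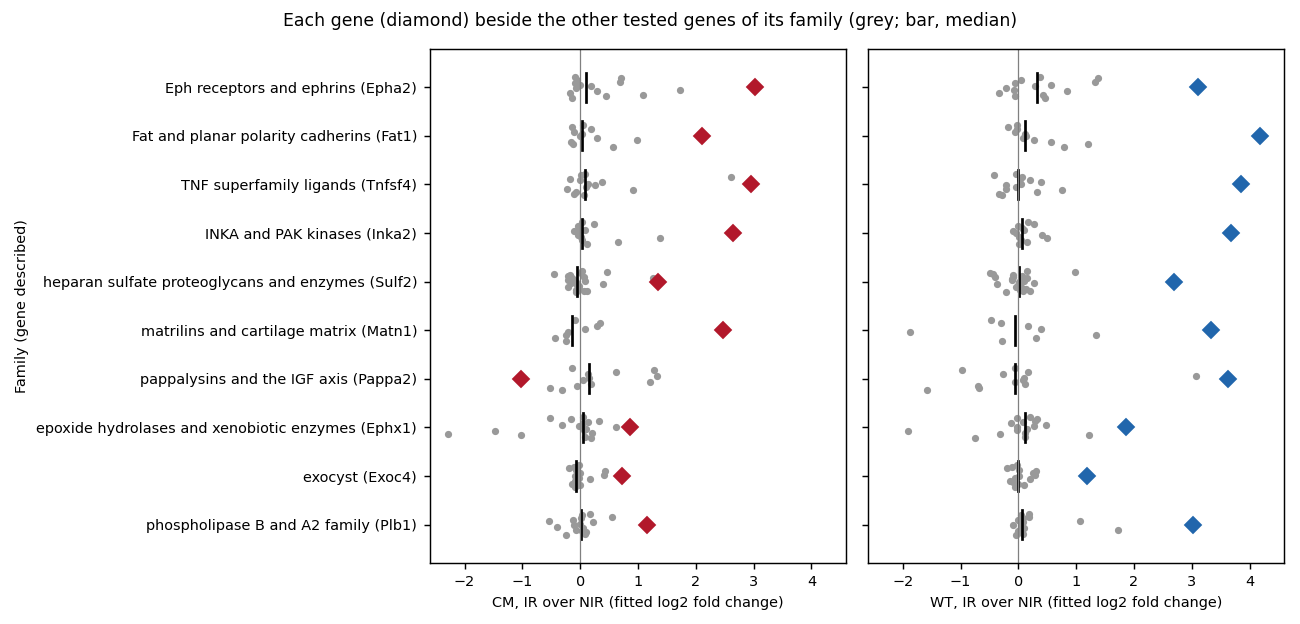
Fitted log2 fold change, IR over NIR, in CM (left) and WT (right) of each gene described (diamond) and of the other tested genes of its family list (grey points; black bar, list median). The diamonds stand to the right of the list medians, except that of Pappa2 in CM.

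Among Eph receptors and ephrins, the 14 other genes tested had a median of 0.09 in CM and 0.33 in WT. The gene with the smallest p in both genotypes was Efnb2, an ephrin-B ligand. It had 1.08, 0.939 and 0.933 CPM in CM IR, against 0.665, 0.483 and 0.661 CPM in CM NIR, and 1.5, 1.62 and 1.92 CPM in WT IR, against 0.678, 0.716 and 0.538 CPM in WT NIR. The groups did not overlap in either genotype. The same held, in the higher direction, for 1.57% of all genes tested in CM and 7.47% in WT. Its log2 fold change was 0.71 ± 0.22 in CM (adjusted p = 0.99996) and 1.38 ± 0.22 in WT (adjusted p = 0.0527, and 0.0379 with the replicate block). Ephb3, an ephrin-B receptor, had 0.28 ± 0.35 in CM and 0.83 ± 0.34 in WT, and the ephrin-A ligands of Epha2 were low: Efna1 had at most 0.297 CPM in any library, with 0.19 ± 0.54 in CM, and Efna4 at most 2.25 CPM, with -0.08 ± 0.61.

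Among the pappalysins and the IGF axis, the 12 other genes tested had a median of 0.14 in CM and -0.06 in WT. Igfbp5, an IGF binding protein that Pappa2 cleaves, had 0.168, 0.0822 and 0.12 CPM in CM IR, against 0.0266, 0.0508 and 0.0675 CPM in CM NIR, and 5.14, 0.478 and 2.58 CPM in WT IR, against 0.793, 0.0651 and 0.128 CPM in WT NIR. The WT groups overlapped, but each animal was higher after irradiation. The log2 fold change was 1.33 ± 1.15 in CM (adjusted p = 0.99996) and 3.07 ± 0.95 in WT (adjusted p = 0.614, and 0.0201 with the replicate block). Pappa, the paralog of Pappa2, was not tested, with at most 0.0635 CPM. The stanniocalcins Stc1 and Stc2, which inhibit pappalysins, had -0.31 ± 0.47 and -0.52 ± 0.29 in CM and -1.58 ± 0.46 and -0.68 ± 0.29 in WT. Igf2r, the receptor that clears IGF2, had 1.21 ± 0.38 in CM and -0.06 ± 0.37 in WT; Stc1, Stc2 and Igf2r did not pass.

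Of the TNF ligands, with Tnfrsf4, the 14 other genes tested had a median of 0.08 in CM and 0.00 in WT. Tnfsf8 (CD30 ligand) had 0.91 ± 0.34 in CM and 0.75 ± 0.34 in WT, and Tnfsf13 (APRIL) 0.37 ± 0.28 and 0.39 ± 0.28. Of the Fat and planar polarity genes, the 11 other genes tested had a median of 0.04 in CM and 0.11 in WT. Fat3 had -0.12 ± 0.72 in CM and 1.21 ± 0.81 in WT, Prickle1 -0.14 ± 0.16 and -0.18 ± 0.16, Fjx1 0.99 ± 1.0 and 0.27 ± 0.95, and the Fat ligand gene Dchs1 -0.15 ± 0.57 and 0.56 ± 0.59. Of the INKA and PAK genes, the 13 other genes tested had a median of 0.03 in CM and 0.07 in WT; Pak1, a Rac and Cdc42 effector kinase, had 0.65 ± 0.26 in CM and 0.15 ± 0.25 in WT, and the exchange factors Arhgef6 and Arhgef7 had 0.24 ± 0.17 and 0.03 ± 0.09 in CM and 0.27 ± 0.17 and 0.16 ± 0.09 in WT. None of these passed the test.

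Of the heparan sulfate genes, the 24 other genes tested had a median of -0.05 in CM and 0.01 in WT. Sulf1, the paralog of Sulf2, was not tested, with at most 0.0235 CPM. The sulfotransferase gene Hs3st1 had 0.40 ± 0.26 in CM and -0.37 ± 0.26 in WT, the glypican gene Gpc4 0.01 ± 0.30 and -0.49 ± 0.30, and the syndecan gene Sdc2 1.26 ± 0.58 and 0.14 ± 0.53. Of the matrilins and cartilage genes, the 8 other genes tested had a median of -0.15 in CM and -0.06 in WT; Matn2 had -0.24 ± 0.50 and -0.28 ± 0.50, Comp -0.25 ± 0.50 and 1.35 ± 0.46, Col9a1 -0.20 ± 0.58 and -1.88 ± 1.12 and Col11a2 0.29 ± 0.28 and 0.16 ± 0.28. Matn4 was listed at 0 in 11 of 12 libraries and was not tested. No gene of either list passed.

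In the exocyst list, the 15 other genes tested had a median of -0.07 in CM and 0.00 in WT, and the subunit genes Exoc2, Exoc3 and Exoc6b had 0.00 ± 0.06, -0.15 ± 0.24 and 0.17 ± 0.13 in CM and 0.10 ± 0.06, 0.00 ± 0.24 and 0.19 ± 0.13 in WT. No gene of the list besides Exoc4 stood above 0.43 in either genotype. Of the epoxide hydrolases and xenobiotic enzymes, the 17 other genes tested had a median of 0.04 in CM and 0.11 in WT. Ephx2, the soluble epoxide hydrolase, had 0.20 ± 0.39 in CM and -0.75 ± 0.39 in WT, and the cytochrome P450 genes Cyp1b1 and Cyp2s1 had -2.28 ± 1.11 and -1.48 ± 1.06 in CM and -0.32 ± 1.12 and -1.90 ± 0.97 in WT. Of the phospholipases, the 16 other genes tested had a median of 0.02 in CM and 0.06 in WT. Pla2g4f, a cytosolic phospholipase A2 gene, had -0.07 ± 0.42 in CM and 1.73 ± 0.41 in WT (adjusted p = 0.249, and 0.0360 in DESeq2); Plbd1 had -0.24 ± 0.73 and -0.04 ± 0.73, Pnpla7 0.17 ± 0.15 and 0.18 ± 0.14, and Lyplal1 0.56 ± 0.28 and 0.18 ± 0.28.

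The genes next to the 10 on the chromosome were examined for a difference that covers the neighbourhood. The nearest tested gene on each side gave 20 neighbours, and no tested gene overlapped one of the 10. None of the 20 passed in CM or in WT in edgeR's test, nor with DESeq2 or limma-voom; at an unadjusted p under 0.05 there were 0 in CM and 2 in WT, Laptm5 and Sec16b. With the replicate block 1 of the 20 was called, in WT: Laptm5, a lysosomal membrane protein gene 8237 bases from Matn1, with a WT log2 fold change of 0.50 ± 0.15 and an adjusted p of 0.0184 in that fit. Their log2 fold changes ran from -0.36 to 0.25 in CM, with a median of -0.03, and from -0.51 to 1.71 in WT, with a median of -0.02. The closest was Ncoa3, 657 bases from Sulf2, and had -0.09 in CM and -0.03 in WT.

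Over the 12 libraries, Pearson's r of log2 CPM over the 45 pairs of genes had a median of 0.90 and a range of 0.55 to 0.99, and the lowest without Pappa2 was 0.74. These values describe libraries in which WT IR, the group that chose the genes, is high for all of them, and libraries of 1 animal share their source. Among 11440 other genes with at least 1 CPM, the profiles most like the mean of the 10 were those of Trp53inp1, Ccng1, Zmat3, Lrrc28, Ddit4l and Cpt1c, with r from 0.98 to 0.97. Zmat3, which encodes an RNA-binding zinc finger protein, had 28.3, 123 and 35.8 CPM in CM IR animals 1, 2 and 3, against 9.33, 10.9 and 8.38 CPM in CM NIR, and 136, 148 and 157 CPM in WT IR, against 12.3, 10.8 and 13.7 CPM in WT NIR. CM animal 2 was again the highest irradiated CM animal, as it was for Ccng1, at 260, 400 and 312 CPM in CM IR. Genes of like profile were picked for their r with the mean of the 10, which favours this same order, so nothing is read from it.

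Ddit4l, a relative of the mTOR inhibitor Ddit4, had 0.541, 1.90 and 0.658 CPM in CM IR, against 0.186, 0.140 and 0.0540 CPM in CM NIR, a log2 fold change of 3.01 ± 0.61. Cpt1c, a carnitine palmitoyltransferase family gene, had 1.81, 3.87 and 1.97 CPM in CM IR, against 1.65, 0.927 and 1.24 CPM in CM NIR (1.0 ± 0.33), and Lrrc28 had 9.87, 14.8 and 10.9 CPM, against 8.29, 9.09 and 9.24 CPM (0.42 ± 0.16). The CM fold change of Lrrc28, at 11.9 ± 2.59 CPM in CM IR and 8.87 ± 0.514 CPM in CM NIR (SD, n = 3), was the smallest of the 6. Of these 6 genes only Trp53inp1 passed in CM (log2 fold change 1.39 ± 0.12, adjusted p = 0.00421), and it is the 1 gene called in CM. With the replicate block no gene was called in CM.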

How the data were processed

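RNA-seq libraries of sorted LSK cells were read from 2 deposited tables. The deposited count table holds whole-number counts per gene and library. The submitters' processing notes name bcl2fastq 2.18.0.12, TopHat2, HTSeq 0.6.1p1 and build mm10, without roles or the strand setting. Per the labels' protocols the libraries were stranded, after ribosomal RNA removal. The deposited RPKM values scale those counts to exon length and library size, and served for levels per length and 1 alternative.

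Groups came from the titles. edgeR 4.0.16 quasi-likelihood tests (R 4.3.3, TMM, filterByExpr with a minimum count of 10, 14599 genes kept, 4 group means over 12 libraries) were adjusted by Benjamini-Hochberg, threshold 0.05, after a check on simulated data with known fold changes. The SE is the absolute log2 fold change over the square root of F. Alternatives used DESeq2 1.42.0, limma 3.58.1, other scaling and filters, a replicate block, the library series as a term, and libraries left out. Within-animal values are log2 CPM with a prior count of 2. The animal numbers pair the libraries, since the library names give the IR and NIR library of a number the same animal. The block is therefore the animal. No 2 libraries were alike within counting error. At 68.5 to 110.8 M counts per library, counting error matters for genes under 1 CPM. Spans are those of the GENCODE annotation on mm10; promoters are from RefSeq.

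The 10 genes and all lists were chosen with earlier results of these data known. Named family genes are the 2 with the smallest p in WT and the 1 in CM of each list, with fixed direct partners of the 10; genes of like profile are the 6 with the highest r. No column belonged to another sample.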

Additional observations from a re-analysis of the deposited data

Results flagged for a closer look

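Pappa2 was singled out because every animal of 1 genotype moved one way and every animal of the other the opposite way. Its mean log2 CPM difference, IR minus NIR, was -0.6573 over 3 CM animals and 2.664 over 3 WT animals. The difference between the genotypes was not tested, since the WT values chose the gene, and the CM values rest on 2 to 7 counts per library.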

How the results depend on the processing

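Under the alternatives run, no fold change of the 10 genes in CM or WT changed sign. Of the family genes named, all uncalled, Fat3 in CM was -0.12 and turned to 0.06 with the replicate block and 0.16 with limma-voom. Gpc4 and Exoc2 in CM and Pak4 and Exoc3 in WT, all within 0.01 of 0, also changed sign under 1 or more of DESeq2, limma-voom and the block. In CM, 1 gene was called, against 18 with DESeq2, 0 with the replicate block, 0 without both libraries of CM animal 3, 3 without those of CM animal 2, and 0 to 3 when single libraries were left out. Of the 10 genes, 0 were called in CM, against 4 with DESeq2, 1 (Epha2) without CM animal 2, and 0 to 1 when single libraries were left out. The replicate block changed no call among the 10 genes in CM; in WT, whose calls of these genes are a description only, it called 10 of the 10, against 9. In WT, 17 genes were called, against 140 with DESeq2, 31 with limma-voom, 163 with the replicate block, 40 on RPKM, 1, 7 and 101 without CM animals 3, 1 and 2, and 1 to 49 when single libraries were left out. All 4 groups share 1 estimate of the spread, so CM libraries bear on WT calls. The causes were not tested. Leaving out both libraries of CM animals 1 or 2 was chosen after seeing the data.

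The median log2 fold change of the 10 genes in CM, 1.72, was 1.07 without the CM IR library of animal 2, the lowest value, and 1.12 on log2(RPKM + 0.1), which understates low genes. Without both libraries of CM animal 3 the CM log2 fold change was 3.36 for Tnfsf4, 3.30 for Epha2 and 3.10 for Inka2. In that fit it was 2.72 for Matn1, 2.24 for Fat1, 1.77 for Sulf2 and 1.19 for Plb1. Ephx1 had 0.90, Exoc4 0.77 and Pappa2 -0.77. The Pappa2 gap between genotypes was -4.25 with a prior count of 0.5, against -3.32. With 3 animals per group and genes such as Matn1 and Pappa2 under 1 CPM, small CM differences are not detectable at this depth.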
